A study of Arabidopsis thaliana with 21 samples.

Results

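Hypocotyls of 3 branching mutants that kept their shoot tip were compared directly with hypocotyls of wild-type plants that had lost it. The comparison took 12 of the 21 arrays of the study, chosen by their labels, namely 3 arrays each of the Arabidopsis thaliana mutants max1, max2 and max3 and 3 arrays of decapitated wild type. The 3 mutants were averaged with equal weight, so a difference below is the mutant mean minus the decapitated mean on the log2 scale, and ± gives the SE of the fit. The wild type was the Col-0 strain, and the labels name the mutants only as max1, max2 and max3. All 4 groups were 2 weeks old and carried lanolin with less than 10% ethanol. The decapitated plants had the shoot tip removed and were harvested 24 h later with the others. Each array held RNA pooled from 120 to 150 hypocotyls, the stem below the seed leaves. The mutants differ from the decapitated plants in both genotype and shoot tip, and these cannot be told apart in this comparison.

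Shoot branching is held back by the shoot tip, which sends auxin down the stem, and by strigolactones, hormones that act together with auxin on buds. MAX3 and MAX1 encode enzymes of strigolactone synthesis, and MAX2 encodes the F-box protein through which strigolactones and karrikins are perceived. Loss of any of them, or removal of the tip, releases side shoots, but only removal of the tip takes away its auxin. Transcripts of these 3 genes themselves were not analysed here.

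The stems in these 2 states of released branching had very different transcript levels. In limma with Benjamini-Hochberg adjustment at an adjusted p of 0.05, 10754 of 22746 probe sets passed, which is 47.3%, with 3652 higher in the mutants (16.1%) and 7102 lower (31.2%). Many of the lower calls were small. Of 7656 probe sets whose 4 group means all lay below 3.5, where values pile up near background, 3022 were called lower with a median difference of -0.09 and 42 were called higher. Among the other probe sets 4080 were lower and 3610 higher. In 8124 probe sets (35.7%) all 9 mutant arrays lay on one side of all 3 decapitated arrays. Larger differences leaned the other way, since 1829 probe sets were called higher by at least 1 log2 unit (8.04%) and 1278 lower (5.62%), and 783 against 385 by at least 2. Higher calls made up 34% of all calls, or 19% with array medians subtracted, which moved the median of all probe sets from -0.05 to -0.21 and the shares called to 13.1% higher and 55.6% lower. A list whose share of lower calls is near these shares of all probe sets does not stand out by its count. Without decapitated replicate 1 or 3 the calls numbered 6986 and 7110 in place of 10754, and the lower calls 3943 and 3882 in place of 7102.

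**Figure D1:**
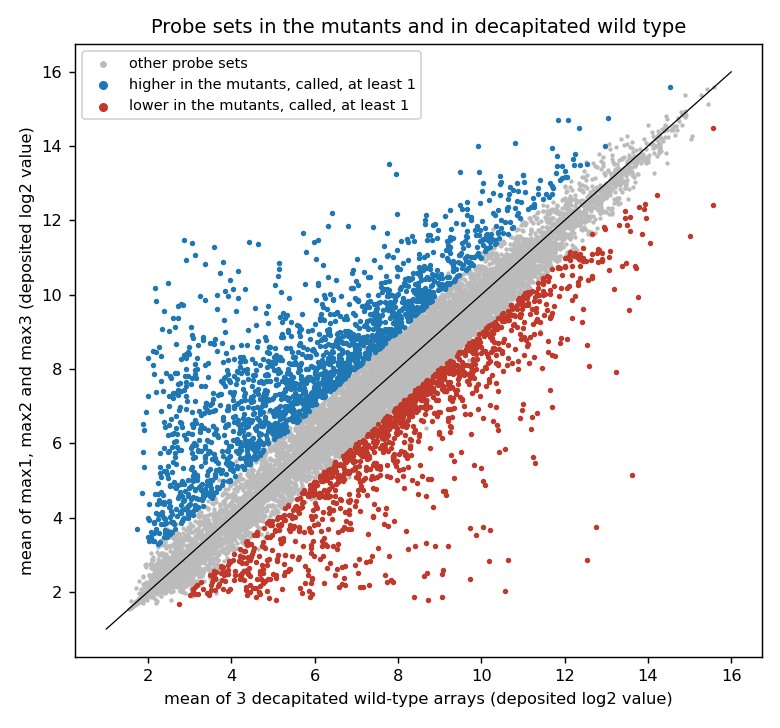
Mean deposited log2 value of the 3 decapitated arrays (horizontal axis) against the mean of max1, max2 and max3 (vertical axis) for 22746 probe sets, with the line of equality. Coloured points passed an adjusted p of 0.05 with a difference of at least 1: 1829 were higher in the mutants and 1278 lower, and many of both lay near background in one of the 2 states.

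Some genes went from near background in one state to clear expression in the other. 67 probe sets lay below 3.5 in every decapitated array and above 6 in every mutant array, and 28 had the reverse pattern. The largest increase among probe sets naming 1 gene was AT4G20230, at 3.40, 2.57 and 3.40 in decapitated wild type and from 10.55 to 11.72 in the mutants, with a median of 10.96 (difference 7.94 ± 0.18, adjusted p = 9.27e-14). The largest decrease was AT2G15780, at 10.46, 11.23 and 10.05 in decapitated wild type and from 1.88 to 2.24 in the mutants (difference -8.57 ± 0.20, adjusted p = 1.11e-13). Its SD was 0.60 in decapitated wild type and 0.19, 0.05 and 0.10 in max1, max2 and max3, so the shared variance understates the decapitated spread. Both genes were picked under a rule that put all 9 mutant arrays on one side of the 3 decapitated ones, so that separation is no result. The same condition held for the other named genes with the largest increases and decreases. Where a group lies near background a fold depends on the background correction, so levels are given beside each difference.

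Few auxin genes could be named, and several of them were higher in the mutants. HAT2 (AT5G47370) encodes a homeodomain transcription factor induced by auxin and was at 5.08, 5.02 and 3.65 in the decapitated arrays and from 8.71 to 10.09 in the mutants, median 9.73. The difference was 5.06 ± 0.28 (33.3-fold, adjusted p = 1.99e-09), and groups without overlap were a condition for listing HAT2 among the largest increases. Of 7 measured Aux/IAA genes, which encode repressors of auxin response, IAA30 (AT3G62100) and IAA18 (AT1G51950) were higher by 3.39 ± 0.18 and 1.64 ± 0.31, and the other 5 did not pass and were near background. The list median was -0.03, against -0.05 over all probe sets, and the share called higher was 28.6%, against 16.1%. WAG2 (AT3G14370), a kinase gene that acts on auxin efflux carriers, was at 2.25 to 2.32 in decapitated wild type and 3.88 to 6.43 in the mutants (3.09 ± 0.31). The auxin synthesis genes YUC4 and YUC11 were near background with differences of -0.09 each, and LBD16 and LBD29 had means of 2.02 each in decapitated wild type and changed by -0.05 ± 0.28 and -0.03 ± 0.21, which did not pass.

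GH3 genes encode enzymes that attach amino acids to auxin and related acids, and the 5 measured did not move as one. WES1 (AT4G27260), also called GH3.5, was higher by 2.02 ± 0.45 and GH3.9 (AT2G47750) lower, with a difference of -2.67 ± 0.35. The lowest max2 array of WES1, at 5.04, lay within the decapitated range of 4.24 to 6.06. In max2 alone WES1 differed by 1.09 and did not pass (limma adjusted p = 0.152). GH3.3 (AT2G23170) was at 3.94, 3.91 and 4.83 in decapitated wild type. It was at 6.32, 7.72 and 9.30 in max1, at 3.91, 4.97 and 7.14 in max2 and at 7.01, 8.11 and 9.83 in max3. The max2 arrays overlapped the decapitated ones while those of max1 and max3 did not, and the mean difference was 2.92 ± 0.69 (limma adjusted p = 0.00351). The F-test among the 3 mutants had an adjusted p of 0.379 for GH3.3, or 0.0319 with the replicate number as a block. Within numbers 1, 2 and 3 max2 differed from max1 by -2.41, -2.75 and -2.16 and from max3 by -3.1, -3.14 and -2.69, so it was the lowest mutant in each number. GH3.17 and GH3.1 each differed by -0.04 and did not pass.

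Of the other hormone genes, cytokinin response regulators went both ways. RR16 (AT2G40670), a type-A response regulator, was at 6.31, 5.88 and 6.71 in decapitated wild type and from 2.45 to 3.06 in the mutants, which is at background in every mutant array (-3.66 ± 0.23, adjusted p = 5.37e-09). ARR15 (AT1G74890), of the same type, was higher instead, at 4.86, 5.10 and 5.45 against 6.55 to 8.07 (2.19 ± 0.26, adjusted p = 7.11e-06). The other 4 of the 6 cytokinin genes were near background.

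All 3 gibberellin receptor genes were lower in the mutants (against 31.2% of all probe sets), with a median of -2.02. GID1B (AT3G63010) was at 8.48, 8.45 and 8.55 in decapitated wild type and from 5.13 to 6.94 in the mutants, median 6.34 (-2.43 ± 0.44). GID1A (AT3G05120) differed by -2.02 ± 0.14 and GID1C (AT5G27320) by -1.10 ± 0.24. In all 3 the mutant arrays lay below the decapitated ones, as they did in 23.6% of all probe sets.

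Genes of dehydration and abscisic acid response were split, with 5 of 13 higher (38.5%, against 16.1% of all probe sets) and 4 lower (30.8%, near the 31.2% of all probe sets). The counts were 3 and 5 with array medians subtracted and 5 and 2 after a second quantile normalization. M17 (AT2G41260), a late embryogenesis abundant protein gene, stood at 7.93, 8.19 and 7.39 in decapitated wild type and between 2.28 and 2.36 in all 9 mutant arrays, a difference of -5.52 ± 0.25 (limma adjusted p = 1.84e-10). The cold-regulated gene COR15A (AT2G42540) differed by -2.49 ± 0.56, although its highest mutant array (5.86) exceeded the highest decapitated one (5.55). The dehydrin gene LTI30 (AT3G50970) was higher by 2.57 ± 0.65. In the jasmonate and wounding list, 3 of 11 were lower (27.3%) and 2 higher (18.2%), near the 31.2% and 16.1% of all probe sets. PDF1.4 (AT1G19610), of the plant defensin family, fell from 11.06, 11.26 and 11.28 to between 5.10 and 7.80 (-4.81 ± 0.40), and JRG21 (AT3G55970), a jasmonate-regulated gene, differed by -4.38 ± 0.70. None of 3 ethylene genes passed, and EIN3 differed by -0.26 ± 0.12 (adjusted p = 0.0875).

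Cell division genes were higher in the mutants. In the mitosis and cytokinesis list 8 of 10 measured genes rose (80%, against 16.1% of all probe sets). None fell, against 31.2% of all probe sets, and the median was 1.20. AUR2 (AT2G25880), an Aurora kinase gene, was at 4.94, 4.17 and 5.01 in decapitated wild type and from 7.02 to 7.95 in the mutants, median 7.80 (2.96 ± 0.23, adjusted p = 8.41e-08). Its relative AUR1 (AT4G32830) was higher by 1.87 ± 0.28, and KINESIN-12B (AT3G23670), a motor of the dividing cell's phragmoplast, by 2.21 ± 0.25. BUB3.2 and SIM, with differences of 0.03 and 0.43, did not pass. The replication genes PRL (AT4G02060), an MCM helicase subunit, and POLA3 (AT5G41880), a primase subunit, were higher by 1.75 ± 0.21 and 0.85 ± 0.23, and POLA3 lost its call without decapitated replicate 1 (adjusted p = 0.0775, and 0.000186 to 0.0775 over its 23 alternatives). Of 7 histone genes 5 rose (71.4%, against 16.1% of all probe sets), among them HTB2 (AT5G22880) by 1.19 ± 0.28. In such whole-stem RNA, fewer cells of a type and less RNA per cell cannot be told apart.

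Of 9 tubulin and actin genes 7 were higher (77.8%) and 1 lower (11.1%), against 16.1% and 31.2% of all probe sets, with a median of 1.23. ACT11 (AT3G12110) was higher by 2.18 ± 0.29, TUB6 (AT5G12250) by 1.53 ± 0.09 and TUA6 (AT4G14960) by 1.48 ± 0.10, while TUA1 differed by -0.68. Among 22 genes for proteins that bind or organise microtubules, 12 rose (54.5%) and 1 fell (4.55%, or 5 genes with array medians subtracted). SP1L2 (AT1G69230) and SP1L4 (AT5G15600), of the SPIRAL1 family that shapes directional cell growth, were higher by 3.02 ± 0.28 and 2.14 ± 0.38, and WDL3 (AT3G23090) by 2.79 ± 0.16. No mutant array of WDL3, at 10.25 to 11.08, overlapped the decapitated values of 7.64 to 7.81. In 12.2% of all probe sets the mutant arrays all lay above the decapitated ones.

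Genes for making and loosening the cell wall held many of the largest named increases. TBL34 (AT2G38320), whose family adds acetyl groups to wall polysaccharides, was at 2.73, 3.45 and 3.03 in decapitated wild type and from 8.49 to 9.26 in the mutants, median 8.84 (5.76 ± 0.26, adjusted p = 1.44e-10). IRX15 (AT3G50220) and IRX15-L (AT5G67210), a related pair needed for xylan, were higher by 5.20 ± 0.37 and 4.25 ± 0.29. IRX15 was at 2.22, 2.20 and 3.25 in the decapitated arrays and at 7.24 or above in each mutant array. GUT2 (AT1G27440), a glycosyltransferase of xylan synthesis, was higher by 3.78 ± 0.18 and ATXYN3 (AT4G08160), a xylanase-like gene, by 5.54 ± 0.37. In the lignin and xylan list 5 of 8 rose (62.5%, against 16.1% of all probe sets) and none fell (1 with array medians subtracted), and the median was 0.43. The lignin gene CCR2 differed by 0.35 and did not pass, and HCT, of the same pathway, was higher by 0.47. In the TBL family 10 of 23 genes were higher (8 under either other scaling) and 1 was lower, at -0.05 (5 with array medians subtracted and 0 after a second quantile normalization). These shares were 43.5% and 4.35%, against 16.1% and 31.2% of all probe sets. The higher TBL genes included TBL38 (AT1G29050) by 3.94 ± 0.16 and TBL45 (AT2G30010) by 3.64 ± 0.16.

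**Figure D2:**
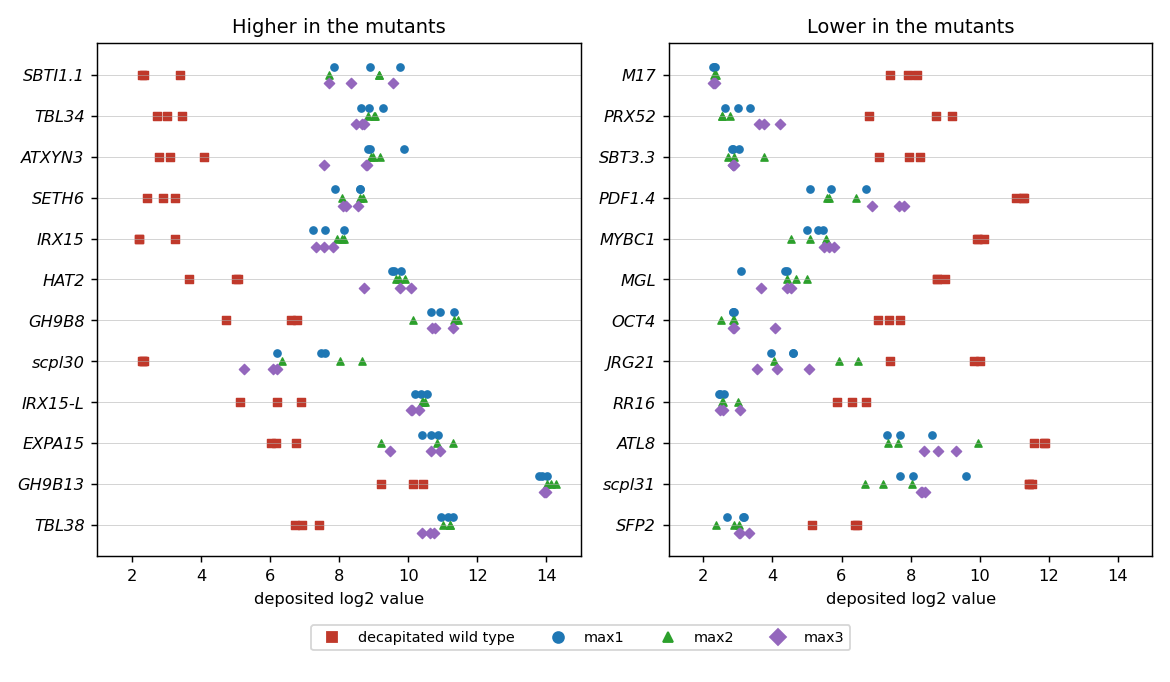
Deposited log2 value in each decapitated array (squares) and each mutant array (circles for max1, triangles for max2, diamonds for max3) for the 12 named genes with the largest increase and the 12 with the largest decrease. The groups did not overlap in any of the 24, which was a condition of their choice, and M17 stayed between 2.28 and 2.36 in all 9 mutant arrays.

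Primary wall genes changed family by family. GH9B8 (AT2G32990), an endoglucanase gene, was at 6.60, 6.77 and 4.72 in decapitated wild type and from 10.15 to 11.43 in the mutants (4.93 ± 0.41, adjusted p = 1.75e-07). GH9B13 (AT4G02290) and GH9C2 (AT1G64390), of the same family, were higher by 4.07 ± 0.20 and 2.32 ± 0.18. In all 5 of 15 endoglucanase genes were higher (33.3%, against 16.1% of all probe sets) and 3 lower (20%, against 31.2%). The 3 lower ones differed by -0.21 to -0.04, with 9 lower when array medians were subtracted and 0 after a second quantile normalization. Expansins loosen walls, and 5 of 19 rose (26.3%, against 16.1% of all probe sets) and 1 fell (5.26%, against 31.2%). EXPA15 (AT2G03090) was higher by 4.15 ± 0.38, EXLA3 (AT3G45960) by 2.62 ± 0.29 and EXPA4 (AT2G39700) by 2.56 ± 0.14. The expansin median was 0.13, or -0.03 with array medians subtracted. Of 10 xyloglucan enzyme genes 5 did not pass and 4 were lower (7 with array medians subtracted and 3 after a second quantile normalization), at a median of -0.07. The lower share was 40%, against 31.2% of all probe sets. Among the lower genes were XTH32 (AT2G36870) at -1.69 ± 0.29 and EXGT-A3 (AT2G01850) at -1.11 ± 0.16, and 1 gene, XTH16 (AT3G23730), was higher by 1.79 ± 0.40. The xyloglucan backbone synthase gene CSLC5 (AT4G31590) was higher by 1.80 ± 0.14 and COB (AT5G60920), which guides cellulose orientation, by 1.40 ± 0.07. Of 7 pectin genes 3 were higher (42.9%, against 16.1% of all probe sets), among them PME61 (AT3G59010), a pectin methylesterase gene, by 1.80 ± 0.29.

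Vascular signals were higher as well, in 5 of 10 measured genes of cambium, xylem and phloem against 1 lower. These shares were 50% and 10%, against 16.1% and 31.2% of all probe sets. CLE26 (AT1G69970), a peptide gene linked to phloem, rose from 2.39 to 2.57 in decapitated wild type to between 5.50 and 6.46 in the mutants (3.27 ± 0.19). CLE44 (AT4G13195), whose peptide keeps cambium cells dividing, was higher by 1.87 ± 0.17 and PHV (AT1G30490), a homeodomain gene of vascular and leaf patterning, by 1.49 ± 0.13. Of 16 CLE and RALF peptide genes 5 were higher (31.2%, against 16.1% of all probe sets) and 1 lower (6.25%, against 31.2%). RALFL34 (AT5G67070), a growth-regulating peptide gene, was higher by 2.04 ± 0.09, and SETH6 (AT2G47860), a BTB-domain gene known from pollen tubes, by 5.50 ± 0.18.

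**Figure D3:**
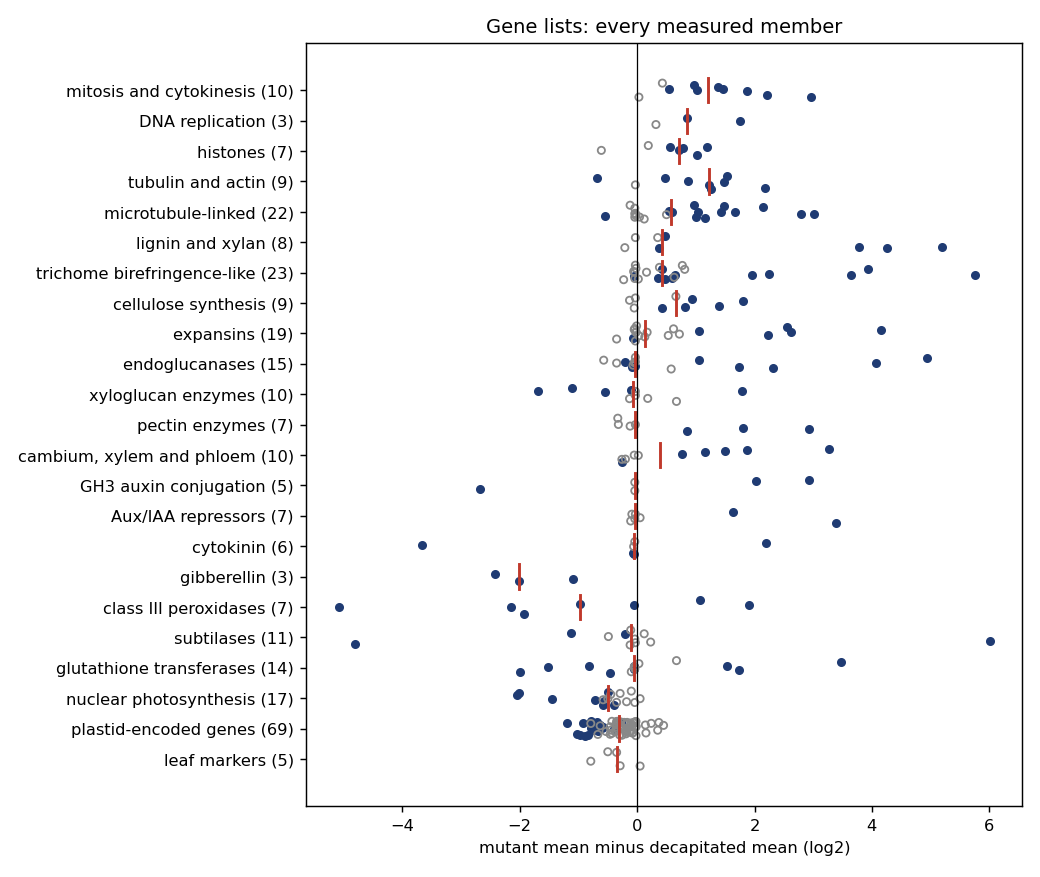
Mutant mean minus decapitated mean (log2) for every measured gene of 23 lists, with the number of genes in brackets. Filled points passed an adjusted p of 0.05, open points did not, and the red bar marks the list median, 1.20 for mitosis and cytokinesis and -2.02 for the 3 gibberellin receptor genes.

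Scaling by array medians added lower calls to several of these lists and moved few counts of higher calls. Lower calls then numbered 6 of 19 expansins, 3 of 7 pectin genes, 2 of 9 in cellulose synthesis, 2 of 10 vascular genes, 2 of 9 tubulin and actin genes, 1 of 7 histones, 5 of 11 subtilases and 5 of 6 cytokinin genes. Under that scaling 55.6% of all probe sets were lower, and among these lists only the cytokinin genes exceeded that share.

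Secreted proteases and peroxidases held changes of opposite direction. SBTI1.1 (AT1G01900), a subtilase gene, was at 3.38, 2.36 and 2.28 in decapitated wild type and from 7.70 to 9.76 in the mutants, median 8.90 (6.01 ± 0.51, adjusted p = 2.06e-07). SBT3.3 (AT1G32960), of the same family, was at 7.96, 8.28 and 7.09 and from 2.70 to 3.75 (-4.81 ± 0.28, adjusted p = 3.32e-09). The pair thus traded places between the states. Among 11 subtilase genes only SBTI1.1 was higher, and 3 were lower (27.3%, near the 31.2% of all probe sets). PRX52 (AT5G05340), a class III peroxidase gene linked to lignin, was at 8.72, 9.21 and 6.80 against 2.53 to 4.21 (-5.08 ± 0.42). Of 7 such peroxidase genes 5 were lower (71.4%, against 31.2% of all probe sets), including Prx37 (-2.15 ± 0.51) and AtPRX71 (-1.92 ± 0.37). AtPRX25 and PRXR1 were higher by 1.90 and 1.07 (28.6%, against 16.1%).

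MGL (AT1G64660), a methionine gamma-lyase gene, differed by -4.55 ± 0.26, the RING-type ubiquitin ligase gene ATL8 (AT1G76410) by -3.43 ± 0.54 and the sugar transporter gene SFP2 (AT5G27360) by -3.02 ± 0.28. The starch synthesis gene APL4 (AT2G21590) differed by -2.98 ± 0.29. Among 25 sugar genes 6 were lower (24%, below the 31.2% of all probe sets, and 17 genes with array medians subtracted) and 2 higher, at a median of -0.04. SWEET11 (-1.91 ± 0.61, adjusted p = 0.0192) lost its call without decapitated replicate 1 or 2 (adjusted p = 0.0912 and 0.133, with 0.00131 to 0.133 over 22 alternatives). In the list of senescence and autophagy genes 6 of 14 fell (42.9%, against 31.2% of all probe sets) and 1 rose (7.14%, against 16.1%). WRKY53 (AT4G23810) and ATG8E (AT2G45170) differed by -1.36 ± 0.38 and -1.29 ± 0.11. SAG29, also in the senescence list, and AKINBETA1, both from the dark-inducible list, differed by -1.76 ± 0.43 and -0.92 ± 0.21. All 3 measured genes of the dark-inducible list were lower, the remaining one being SAG101 at -0.65 ± 0.19. SAG101 lost its call without decapitated replicate 1 or 2 (limma adjusted p = 0.0512 and 0.0549, with 0.00135 to 0.0549 over 23 alternatives). In max3 alone AKINBETA1 and SAG101 did not pass (limma adjusted p = 0.118 and 0.138). MYBC1 (AT2G40970), a MYB factor gene, and OCT4 (AT3G20660), an organic cation transporter gene, differed by -4.67 ± 0.30 and -4.40 ± 0.25.

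None of 17 nuclear photosynthesis genes was called higher in the mutants. In that list 8 were lower (47.1%, against 31.2% of all probe sets, and 13 genes with array medians subtracted), and the median was -0.50. The largest differences were in factors of the chloroplast NDH complex, CRR41 (AT1G51100) at -2.04 ± 0.19, NdhN (AT5G58260) at -2.01 ± 0.32 and CRR21 (AT5G55740) at -1.45 ± 0.26. Light-harvesting genes did not pass, with LHCB4.1 at -0.29 ± 0.14 and LHCB4.2 at 0.05. Of 69 genes encoded in the plastid, which also serve plastid translation and transcription, 19 were lower at a median of -0.31. None of them was higher, against 16.1% of all probe sets. The lower share was 27.5%, against 31.2% of all probe sets. That 31.2% holds many small calls near background, whereas only 4 of the 69 genes had a mean over all arrays below 3.5, so the 2 shares are not alike. With array medians subtracted 38 were lower, a scaling under which 55.6% of all probe sets were lower. The ribosomal protein gene rps16 differed by -1.20 ± 0.25. The 5 leaf markers, all well above background, showed no call (2 lower with array medians subtracted) and a median of -0.35. Their summed level, as log2, ran from 14.19 to 14.95 in decapitated wild type and from 13.99 to 14.89 in the mutants, and its part in the result was not tested. All 4 shoot apex markers, CLV3 among them, both root hair markers and all 3 guard cell lineage markers lay below 3.5 in every group. The companion cell and xylem markers chosen for hypocotyl tissue were not analysed here.

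Genes of nitrogen and glucosinolates went in both directions. In the nitrogen list 3 of 14 were higher (21.4%) and 4 lower (28.6%), near the 16.1% and 31.2% of all probe sets. With array medians subtracted 8 were lower, a scaling under which 55.6% of all probe sets were lower. In the glucosinolate list 4 of 6 were higher (66.7%) and 1 lower (16.7%), against 16.1% and 31.2% of all probe sets. BCAT4 (AT3G19710), the first enzyme of methionine-derived glucosinolates, was higher by 2.92 ± 1.02 (adjusted p = 0.0301), with 8.29 to 10.34 in decapitated wild type overlapping 10.13 to 14.06 in the mutants. It lost its call without any one of the decapitated arrays (adjusted p = 0.15, 0.0547 and 0.0508, with 0.00235 to 0.15 over 23 alternatives). UGT74B1 (AT1G24100), a later enzyme of that pathway, was higher by 1.36 ± 0.13 and the transporter gene GTR2 (AT5G62680) lower, at -2.06 ± 0.17. GAT1_2.1 (AT1G15040), a glutamine amidotransferase-like gene, was at 8.56 to 8.87 in decapitated wild type and from 2.05 to 8.49 in the mutants, so the difference of -3.67 ± 0.92 covers a wide spread within the mutants. The nitrate transporter gene NRT2.5 stayed at background. DFR (AT5G42800), the 1 of 4 anthocyanin and flavonol genes called, was higher by 1.74 ± 0.65 (adjusted p = 0.0391) and lost its call under 12 of 23 alternatives (adjusted p = 0.00608 to 0.105 over all of them).

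GSTU23 (AT1G78320) was higher by 3.48 ± 0.26 and GSTU27 (AT3G43800) differed by -2.0 ± 0.21, both genes of glutathione transferases. Of 14 such genes 3 rose (21.4%) and 6 fell (42.9%), against 16.1% and 31.2% of all probe sets. The defensin gene LCR68 (AT2G02130) was higher by 2.49 ± 0.19, the 1 of 10 defensin genes that rose. Another 3 were lower (30%, near the 31.2% of all probe sets), of which PDF1.4 was above background. The 13 heat shock and cochaperone genes had a median difference of -0.34, with 4 lower (30.8%, near the 31.2% of all probe sets) and 1 higher (0 with array medians subtracted). Of 7 WRKY transcription factor genes 2 were higher and 2 lower (28.6% each, against 16.1% and 31.2% of all probe sets). ZAP1 (AT2G04880) and WRKY20 (AT4G26640) were higher by 0.53 each, and WRKY53 above and WRKY6 (AT1G62300), at -1.05 ± 0.31, were lower. WRKY6 lost its call without decapitated replicate 1 or 2 (adjusted p = 0.0614 and 0.059). In the low oxygen list 1 of 3 was lower (33.3%, near the 31.2% of all probe sets), while CML38 and PDC2 did not pass. The lower one was HRA1 (AT3G10040), a gene that attenuates the low oxygen response, at -1.25 ± 0.35 (adjusted p = 0.0109). Its adjusted p was 0.0539 and 0.0593 without decapitated replicate 2 or 3, and 0.0599 with max3 left out of the mean.

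Differences among the 3 mutants were small beside their distance from decapitated wild type. Over all probe sets, arrays of different mutants correlated at 0.984 to 0.994, and arrays of a mutant and decapitated wild type at 0.939 to 0.956. Separately, max1 gave 8796 calls (38.7%), max2 6383 (28.1%) and max3 7360 (32.4%), and these comparisons share the 3 decapitated arrays. Among 1168 probe sets called by at least 2 log2 units, the median size of the difference was 2.88 in max1, 2.92 in max2 and 2.73 in max3. The median range of the 3 mutant means was 0.42 there. These probe sets were chosen by a large mean difference, so its size beside that range is no result. A direct F-test among the mutants called 115 probe sets (0.506%), or 191 with the replicate number as a block, and 1400 had an unadjusted p below 0.05. Of the 145 named genes 9 passed it. Differing among the mutants was itself a reason for naming a gene, so this count is no result. With the block GH3.3 and HTB1 (F-test adjusted p = 0.0364) passed as well. Of the 10754 called against decapitated wild type, 78 were also called among the mutants. The signalling mutant max2 differed from the mean of the synthesis mutants max1 and max3 in 39 probe sets (0.171%).

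Named genes that differed among the mutants included several set apart by max1 alone. QQS (AT3G30720), a gene of carbon and nitrogen allocation without relatives in other species, was at 5.40, 6.12 and 5.35 in max1, from 2.34 to 2.44 in max2 and max3 and from 2.43 to 2.80 in decapitated wild type (F-test adjusted p = 2.54e-09). APA1 (AT1G11910), an aspartic protease gene, was at 11.48, 11.22 and 11.39 in max1 and between 13.43 and 13.84 in the other mutants, which overlapped the 13.44 to 13.60 of decapitated wild type. SQN (AT2G15790), a cyclophilin gene, and PIP (AT2G14260), a proline iminopeptidase gene, showed this pattern as well, at 1.86 above and -1.75 below decapitated wild type in max1. For QQS, APA1 and SQN the mean of the mutants therefore does not describe any mutant: with max1 left out it was -0.17, 0.06 and -0.24 in place of 0.91, -0.69 and 0.46.

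In other genes the size of the difference from decapitated wild type varied among the mutants. ATPMEPCRD (AT2G43050), a pectin methylesterase gene, was at background in decapitated wild type (2.43 to 2.55) and at 3.83, 4.11 and 4.52 in max2, 4.93, 5.94 and 5.16 in max1 and 7.22, 6.12 and 6.77 in max3. The 3 mutants did not overlap each other, and the F-test had an adjusted p of 0.0198. APL4 was at 4.83, 4.47 and 5.50 in max1 and between 2.48 and 3.53 in the others, against 6.34 to 7.25. MCCA (AT1G03090), of leucine breakdown, differed from decapitated wild type by -1.83 in max1, -1.36 in max2 and -0.65 in max3. BGLU41 (AT5G54570), a beta-glucosidase gene, was higher in max1 and max2 by 0.77 and 0.98 and differed by 0.01 in max3.

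**Figure D4:**
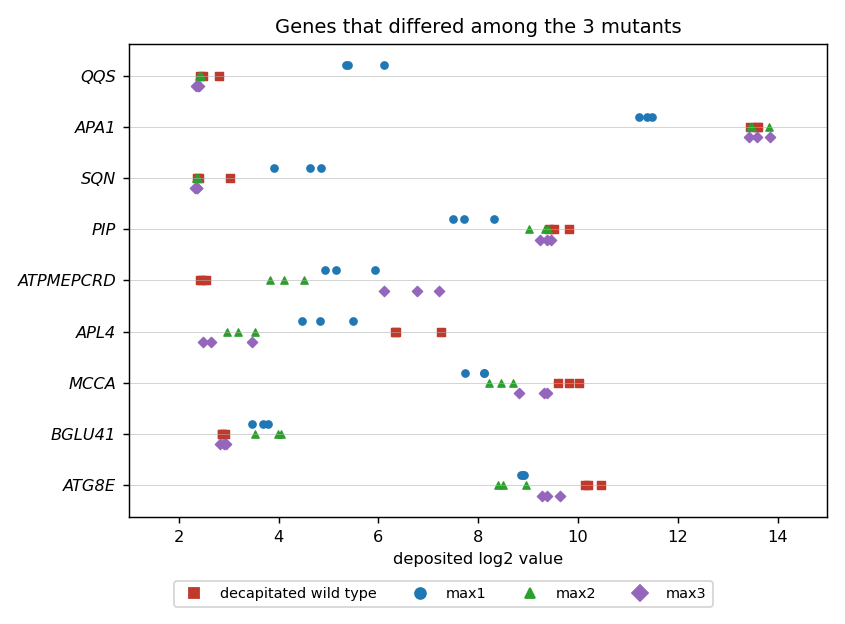
Deposited log2 value in each array for 9 named genes that passed the F-test among max1, max2 and max3. QQS, APA1, SQN and PIP were set apart by max1, and the 3 mutants did not overlap in ATPMEPCRD.

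Intact wild type, not part of the comparison, lay nearer the mutants in most of what differed. Of the 1168 probe sets called by at least 2 log2 units, the intact mean was nearer the mutant mean in 1041 and nearer the decapitated mean in 127. HAT2 was at 9.24 and SBTI1.1 at 8.04 in intact wild type, close to the mutants, and M17 at 2.40. The following genes were chosen after their values were seen, because their intact level lay nearer the decapitated one, and carry no further test. The carboxypeptidase-like gene scpl30 (AT4G15100) was at 2.30 in intact and 2.30 to 2.34 in decapitated wild type and at 5.24 to 8.65 in the mutants (4.55 ± 0.37 against decapitated). ATPMEPCRD was likewise at 2.51 in intact wild type, and WAG2 at 3.36. TRM22 (AT1G67040), of a family of microtubule-associated proteins, was at 7.29 in intact and 8.13 to 8.31 in decapitated wild type and at 4.68 to 5.71 in the mutants. SUFE2 (AT1G67810), of iron-sulfur cluster assembly, and ATC (AT2G27550), a relative of the flowering repressor TFL1, were higher in the mutants than decapitated by 2.79 ± 0.40 and 2.74 ± 0.68, and at 6.32 and 6.82 in intact wild type. The decapitated and mutant means of SUFE2 were 5.11 and 7.90, so its intact mean was only slightly nearer the decapitated one. For ATC the intact arrays were spread widely, at 7.99, 5.03 and 7.44, and the decapitated ones ran from 4.87 to 7.42. Each mutant array of scpl30, ATPMEPCRD, WAG2, SUFE2 and ATC lay above the decapitated arrays, as in 12.2% of all probe sets, whereas those of GH3.3 and BCAT4 overlapped them. For scpl30 this was a condition of its choice as a named gene.

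**Figure D5:**
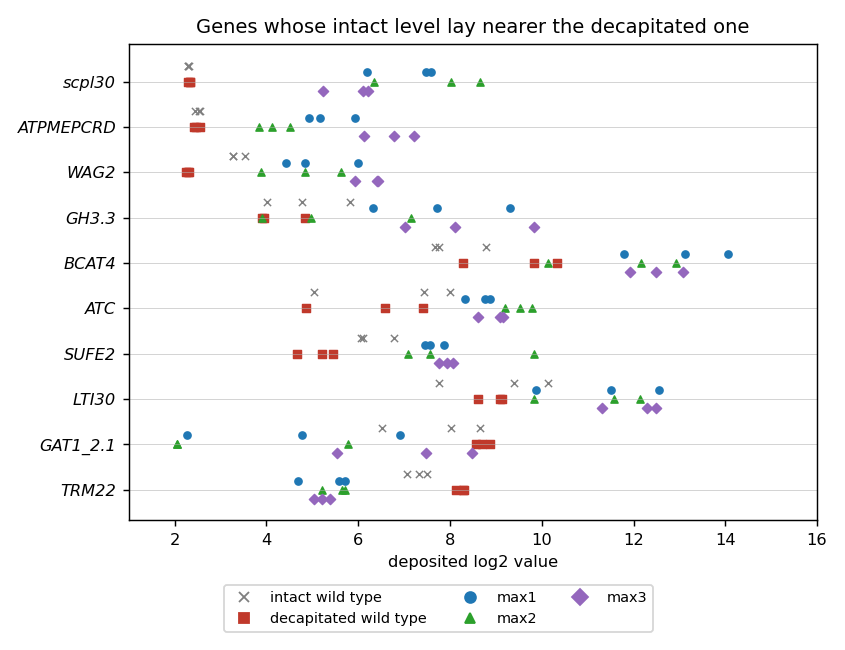
Deposited log2 value in each array of intact wild type (crosses), decapitated wild type (squares), max1 (circles), max2 (triangles) and max3 (diamonds) for 10 genes chosen because the intact mean lay nearer the decapitated than the mutant mean. The scpl30 gene was near 2.3 in both wild-type groups and at 5.24 or above in each mutant array.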

How the data were processed

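RNA of hypocotyls was hybridised to 21 ATH1 arrays, of which 12 were compared. The authors deposited log2 values. Per the submitters' processing notes RMA, GCRMA and R 3.2.2 were used, with their roles not given in the sources used here. They entered without further scaling or filtering. Of 22810 probe sets 64 controls were left out. The platform annotation named 1 gene for 13513, several for 503 and none for 8730, and 1693 of the first carry a gene name, so larger changes can lie among probe sets without one. A gene in a list stood for its probe set with the highest mean.

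The tests used limma 3.58.1 (R 4.3.3) on group means of all 21 arrays in 7 groups, with moderated variances on 14 residual plus 1.03 prior degrees of freedom. P-values were adjusted by Benjamini-Hochberg over 22746 probe sets. On simulated data for the comparison of the mutants with decapitated wild type, 83 of 100 probe sets changed by 1 log2 unit and 89 of 100 changed by 2 were recovered. The changes were placed only in probe sets with a mean above 6, with independent normal noise and all other probe sets unchanged. These rates therefore do not describe dim probe sets, arrays that correlate within a replicate number, or data with as many changes as here. The number of arrays limits the precision. The labels call the arrays biological replicates and say that treatments of a replicate were performed together, so equal numbers pair the arrays. Residuals of arrays with the same number had a median correlation of 0.319 (0.374, -0.0239 and 0.358 for numbers 1, 2 and 3), against -0.0718 for different numbers. Array medians were 6.11 to 6.19 in decapitated wild type and 6.26 to 6.35 in the mutants, and arrays of a mutant and decapitated wild type correlated at 0.939 to 0.956, against 0.985 to 0.995 within a group.

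Named genes were the 12 largest increases and 12 largest decreases with a gene name, groups without overlap and the same call in each mutant, 4 each way without a name required, up to 3 called members of each list (or 2 where none was called), 8 that differed among mutants, and 10 preset names. Lists came from gene names, with 40 wrong matches removed by hand, some after values were seen. A few list members named beside these, and the genes set against intact wild type, were chosen after their values were seen. The members, lists and rules were chosen with earlier results of these data known. Promoter sequences were not used here. Of 54 lists, those not described above had under 3 genes, no call of at least 1 log2 unit, or no measured gene.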

Additional observations from a re-analysis of the deposited data

Results flagged for a closer look

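Results for 9 named genes stood out because the 3 mutants differed from each other in a direct F-test (limma, Benjamini-Hochberg adjusted p below 0.05). A single mutant mean therefore describes them poorly. Differing among the mutants was also a reason for naming a gene, so the number of such genes is no result. The range of the 3 mutant means was 3.24 log2 units in QQS, 2.26 in APA1, 2.11 in SQN and 1.52 in PIP, all set apart by max1. It was 2.55 in ATPMEPCRD, where max3 was highest, and 2.07 in APL4, where max1 was highest. It was 1.18 in MCCA, 0.96 in BGLU41 and 0.81 in ATG8E, whose highest means were in max3, max2 and max3. QQS, SQN, ATPMEPCRD, APL4 and BGLU41 were near background in some groups. The cause was not tested.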

How the results depend on the processing

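Of 145 named genes 128 were called, and 25 lost the call in at least 1 of up to 23 alternatives. RR22 and SPCH, both near background, turned to 0.01 after a second quantile normalization, and without max1 QQS, APA1 and SQN turned to -0.17, 0.06 and -0.24. Medians of lists turned to 0.00 (Aux/IAA, cytokinin, guard cell) or 0.01 to 0.03 (other auxin response, endoglucanases, sugar, glutathione transferases at 0.01, the pathogenesis-related list, whose 10 measured members were defensins, at 0.03) under the second quantile normalization, and to -0.03 (expansins), -0.15 (CLE and RALF peptides) and -0.11 (iron and metals) with array medians subtracted, which moved the median of all probe sets from -0.05 to -0.21. The share of calls that were higher in the mutants was 34%, and 19% with array medians subtracted, 47.9% without dim probe sets, and 43.6% and 45.4% without decapitated replicate 1 and 3.

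The calls against decapitated wild type numbered 6815 (1925 higher) with only probe sets naming 1 gene and 3107 (1829 higher, 1278 lower) at 1 log2 unit. The lower calls numbered 12637 with array medians subtracted and 3822 without dim probe sets. Leaving out 1 array gave 6986 to 11007 calls, 3043 to 3694 higher and 3882 to 7313 lower. With array medians subtracted max1, max2 and max3 gave 14391, 14014 and 13896 calls, of which 11669, 11344 and 11357 lower. With probe sets of 1 gene they gave 5636, 3353 and 4542 calls, of which 1686, 1551 and 1561 higher, and 1802 lower in max2. Without dim probe sets 3163 were lower in max1 and 2847 in max3, and 7413 in max3 with an intensity trend. Leaving out 1 array gave 5450 to 9143 calls in max1 (2637 to 3203 higher, 2813 to 6222 lower), 5289 to 6861 in max2 (2608 to 3001, 2681 to 4123) and 5102 to 8097 in max3 (2517 to 2983, 2558 to 5391).

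The F-test among mutants gave 115 calls, and 191 with the replicate block that pairs arrays of a number, 56 in a fit of the 12 arrays, 248 with array weights, 70 with probe sets of 1 gene and 82 to 175 leaving out 1 array. Max2 against max1 and max3 gave 39 calls (17 higher, 22 lower), 16 (10 and 6) with 12 arrays, 24 (12 lower) with probe sets of 1 gene, 27 higher with array weights, and 25 to 74 (13 to 42 and 10 to 32) leaving out 1 array. The block moved no other count of calls over all probe sets by over 1.5 times. Arrays that moved a count so far when left out were decapitated replicates 1 and 3 (lower calls of max1 and max3 too), max1 replicates 1 and 3, max3 replicates 1 and 2, and, for max2 against the others or the F-test, each max2 array and max3 replicates 1 and 3. Causes were not tested.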

Other observations

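In a small set of genes the mean of the mutants and the decapitated mean lay near each other and away from intact wild type. These genes were chosen after their values were seen, as those whose 12 arrays all lay on one side of the 3 intact arrays, with each group mean at least 2 log2 units from the intact mean and the mutants within 1 unit of decapitated wild type, and 7 genes met this. The subtilase gene SBT4.12 (AT5G59090) was at 3.34, 4.04 and 4.28 in intact wild type, at 8.36, 7.57 and 7.81 after decapitation and from 6.78 to 9.26 in the mutants. Its mutant mean differed from the decapitated mean by 0.12, with a 95% interval of -0.55 to 0.78, which averages 0.90 in max1, 0.30 in max2 and -0.85 in max3. ATSBT5.2 (AT1G20160), of the same protease family, was at 5.34, 4.49 and 7.0 in intact wild type, at 9.99, 10.57 and 10.68 after decapitation and from 8.84 to 11.14 in the mutants, with a difference of -0.49 and an interval of -1.32 to 0.34. In max3 alone it was lower than in decapitated wild type, with a difference of -1.35 (limma adjusted p = 0.0419).

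The microtubule-linked gene IQD18 (AT1G01110) had the reverse pattern, at 4.52, 4.63 and 5.62 in intact wild type and between 2.15 and 2.44 in all 12 arrays of the comparison, at background. AT1G30760 was at 3.2, 3.1 and 2.37 in intact wild type, from 7.0 to 8.67 after decapitation and from 6.40 to 9.83 in the mutants, with an interval for the difference of -0.77 to 1.28 and single differences of 0.71 in max1, 1.18 in max2 and -1.12 in max3. The remaining 3 genes, AT2G37870, AT1G10980 and AT5G44530, differed between mutants and decapitated wild type by -0.48, -0.26 and -0.02. The choice of these genes fixed that the mean differences are small, and the intervals do not show equal levels.

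Another 3 genes were far lower in a single mutant than in the others. The lowest array of AT2G25450 was at 3.58 and that of AT2G14460 at 3.39, both in max1, and that of AT3G07230 was at 1.87 in max3, while all 3 stood above 9 in each decapitated array. The F-test among the mutants gave them adjusted p-values of 1.57e-11, 7.96e-08 and 2.35e-14 in limma. AT2G25450 was also lower in max2, by a difference of -0.88 (adjusted p = 0.0358).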
